A study of Mus musculus with 9 samples.

Results

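The amino acid stress response and the unfolded protein response were followed through 36 genes in BaF3 cells carrying a fusion tyrosine kinase. The 36 genes were chosen by name as targets of the transcription factor ATF4 (21 genes, with Atf4 itself) and as genes of the endoplasmic reticulum (ER, 15 genes, from Hspa5 onward). All 36 had a probe set of their own among the 19938 genes tested, and no member was dropped by a filter on low values. The members were chosen by symbol, and where a gene had several probe sets (2 members, Dnajc3 and Pdia4) the one of highest mean was taken.

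BaF3 is a mouse haematopoietic line that depends on interleukin-3. The cells carried BCR-RET, FGFR1OP-RET or BCR-ABL (the P210 form per the series design), delivered by retrovirus, and were sorted by EGFP fluorescence. In the RET fusions, BCR or FGFR1OP takes the place of the N-terminal part of the receptor tyrosine kinase RET, and BCR-ABL drives chronic myeloid leukaemia. Each fusion had 3 Affymetrix MouseGene 1.0 ST arrays, numbered 1 to 3 in the titles, 9 arrays in all. All groups share the cell line, the retroviral delivery and the sort, and cells without a fusion were not analysed here. Whether the 3 arrays of a fusion came from separate infections or cultures, and what a number stands for, is not stated in the labels. The p-values therefore reflect only how far these arrays scatter, and that scatter may be technical. The labels do not say whether interleukin-3 was in the medium either.

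When amino acids run short, or when unfolded protein gathers in the ER, kinases such as GCN2 (gene Eif2ak4) and PERK (Eif2ak3) phosphorylate the initiation factor eIF2. General translation slows, ATF4 protein is made from its mRNA all the same, and ATF4 switches on genes for amino acid synthesis and uptake, together with regulators such as CHOP (Ddit3). In the ER, the sensor IRE1 (Ern1) splices the mRNA of the transcription factor XBP1, and XBP1 and ATF6 raise chaperones, disulfide isomerases and the machinery that degrades misfolded proteins. Arrays read mRNA, so neither ATF4 protein nor eIF2 phosphorylation was measured, and 1 value per gene does not separate spliced from unspliced Xbp1 mRNA.

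Promoter windows are shown for some of the members that hold a match to a known control element of their arm, to set those elements beside the values. They include members that differed little, such as Hspa5, Asns and Chac1. RefSeq promoters (mouse build GRCm38.p6) were at hand for 31 of the 36 members, and the 250 bases before the start were searched on both strands. The C/EBP-ATF response element, TGATGNAA, was found in 6 of 18 ATF4-arm genes (33.3%) and 1 of 13 ER-arm genes (7.69%), against 3.91% of 27025 genes. The ER stress response element, ERSE, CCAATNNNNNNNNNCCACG, was found in 6 of 13 ER-arm genes (46.2%) and in 0 of 18 ATF4-arm genes, against 0.13% of all genes. ERSE-II, which is ATTGG and CCACG with 1 free base between them, was found in 1 ER-arm gene, Herpud1, and in 0.037% of all genes. ERSE and ERSE-II share the letters CCACG and, on opposite strands, CCAAT. The TGATGNAA matches in these promoters shared no bases with either. In the sequences, 60 bases each and 5′ to 3′ on the gene's strand, capitals mark the match. Positions are chr7:126625547-126625606 (minus strand) for Nupr1, chr3:50443646-50443705 (minus) for Slc7a11, chr6:7693210-7693269 (minus) for Asns, and chr2:119351023-119351082 (plus) for Chac1. Those of the ER arm are chr2:34772004-34772063 (plus) for Hspa5, chr15:88819499-88819558 (plus) for Creld2, and chr8:94386291-94386350 and chr8:94386352-94386411 (plus) for Herpud1.
Nupr1: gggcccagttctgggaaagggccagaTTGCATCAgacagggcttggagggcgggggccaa
Slc7a11: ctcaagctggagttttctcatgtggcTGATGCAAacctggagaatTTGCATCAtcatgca
Asns: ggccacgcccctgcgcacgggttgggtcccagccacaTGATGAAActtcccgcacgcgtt
Chac1: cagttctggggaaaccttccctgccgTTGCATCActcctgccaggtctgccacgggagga
Hspa5: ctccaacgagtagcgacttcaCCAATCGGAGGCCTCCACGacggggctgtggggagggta
Creld2: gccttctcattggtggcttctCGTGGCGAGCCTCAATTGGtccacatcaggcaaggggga
Herpud1: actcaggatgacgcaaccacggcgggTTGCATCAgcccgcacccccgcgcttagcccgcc
Herpud1: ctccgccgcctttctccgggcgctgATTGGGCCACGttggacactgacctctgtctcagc
The capitals are TGATGNAA or its reverse complement in the first 4 windows and in the upper Herpud1 window, where Slc7a11 has a match on each strand. They are ERSE in Hspa5 and Creld2 (reverse strand in Creld2) and ERSE-II in the lower Herpud1 window. Matches not shown were TGATGNAA in Atf3 and Vldlr and ERSE in Calr, Dnajc3, Hsp90b1 and Pdia6. Within the 250 bases searched, the letters were not found in Ddit3, Trib3, Dnajb9, Sdf2l1 or Edem1. A match describes the sequence and is no evidence of binding.

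The arrays were alike over the whole range of genes, with correlations of 0.993 to 0.996 within fusions and 0.990 to 0.996 between fusions over all probe sets. Of 12 markers of BaF3 as a haematopoietic, B-lineage line, 11 were measured. The leukocyte antigen Ptprc and the interleukin-3 receptor genes Il3ra, Csf2rb and Csf2rb2 had mean values above those of 92.7%, 78.0%, 97.4% and 92.7% of genes. The B-lineage genes were lower in that order: Cd79b stood above 68.6% of genes, while Cd79a, Ebf1 and Pax5 stood above 10.9%, 16.0% and 37.2%. Vpreb2, Igll1 and Vpreb1 stood above 59.3%, 43% and 37.9%. Of 16 markers of fibroblasts, macrophages and T cells, Cd68 and Adgre1 stood above 75.2% and 66.3% of genes and the rest lower. None of the 16 passed between fusions with 1 mean per fusion, where 0.587% to 1.33% of all genes did. With the replicate number as a block, 1 of 5 T cell markers was higher in BCR-RET against FGFR1OP-RET (20%, against 5.69% of all genes). In a bulk extract, fewer cells of a type and less RNA per cell cannot be told apart.

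The members differed widely in how much they moved over the 9 arrays. The span from the lowest to the highest array was 0.13 log2 units for Atf3 (an ATF-family factor induced by stress) and for Psph (the last enzyme of serine synthesis). It was 1.32 for Slc7a11, 1.07 for Nupr1, 1.02 for Trib3, 0.95 for Ddit3 and 0.88 for Dnajb9. The genes that define the responses lay near the quiet end, at 0.21 for Atf4 and 0.19 for Hspa5. Atf3 had 1 identical value on all 3 BCR-RET arrays, so its SD there is 0. Such a repeat in some group occurred in 4.37% of all genes. Atf4 also had 1 identical value on 3 arrays, 10.9722 on BCR-RET number 3 and BCR-ABL numbers 1 and 2. That is the lowest Atf4 value of both these fusions. Where the repeats come from was not tested.

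**Figure D1:**
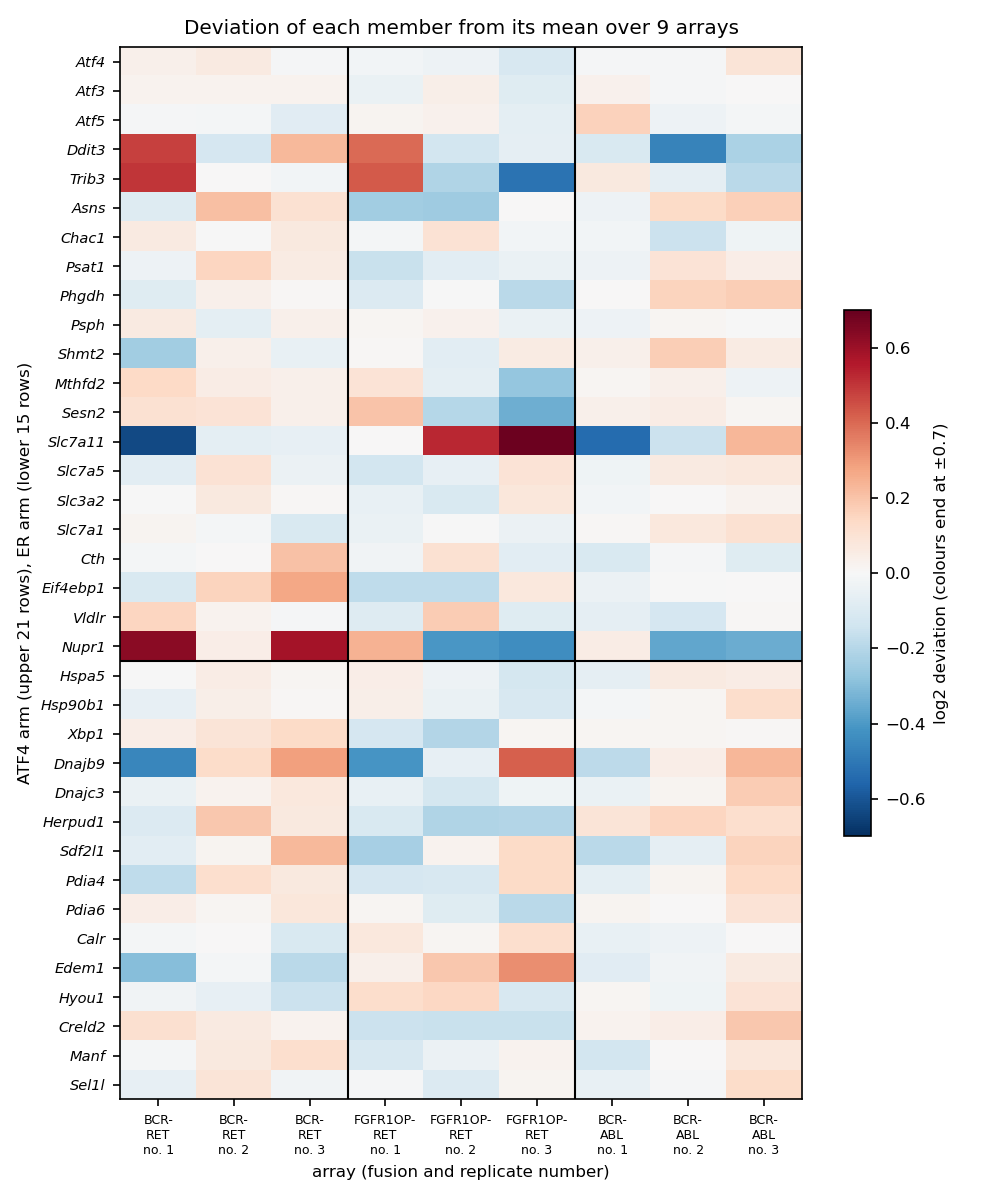
Deviation of each of the 36 members from its own mean over the 9 arrays (colour, log2 units, scale ending at 0.7 in either direction), with arrays in columns by fusion and replicate number and genes in rows by arm. Ddit3, Trib3 and Nupr1 are highest at number 1 within each fusion, and Slc7a11, Dnajb9 and Sdf2l1 are lowest there, while most other rows are pale.

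Averaged over the 21 genes of the ATF4 arm, the deviation from each gene's own mean was 0.04, 0.04 and 0.06 log2 units on BCR-RET arrays 1, 2 and 3. It was 0.02, -0.04 and -0.07 on FGFR1OP-RET arrays and -0.03, -0.03 and 0.00 on BCR-ABL arrays. Over the 15 genes of the ER arm the average was -0.07, 0.06 and 0.04 on the BCR-RET arrays, -0.06, -0.05 and 0.02 on the FGFR1OP-RET arrays and -0.05, 0.01 and 0.11 on the BCR-ABL arrays. By this average number 1 was the lowest array of each fusion for the ER arm, in FGFR1OP-RET cells by a small margin. By the median over the ER genes, FGFR1OP-RET number 2 was lower, at -0.059 against -0.05 at number 1. Of the 15 genes, 4 stood above their own mean on FGFR1OP-RET number 2 and 6 on number 1. No array average of either arm lay further than 0.11 from the mean of all arrays.

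Between the fusions, no member of either arm passed the test, and the median difference of each arm lay near 0. In each of the 3 comparisons 0 of the 36 members passed an adjusted p under 0.05 (limma over all 19938 genes, 1 mean per fusion, Benjamini-Hochberg). The share of all genes that passed was 0.587% for BCR-RET against BCR-ABL, 1.02% for FGFR1OP-RET against BCR-ABL, and 1.33% between the RET fusions. The 117, 203 and 265 genes behind these shares came to 28 and 70 without BCR-ABL replicate 2 and, between the RET fusions, to 86 without FGFR1OP-RET replicate 2. At an unadjusted p under 0.05 the members numbered 3, 5 and 8 of 36, which is 8.33%, 13.9% and 22.2%, against 11.4%, 9.75% and 14.9% of all genes, in the same order. The median log2 difference of the ATF4 arm was 0.02, -0.04 and 0.06 and that of the ER arm was -0.02, -0.05 and 0.06. Over all genes the medians were 0.03, 0.00 and 0.03. The median standard error (SE) of a member's log2 difference was 0.07, as it was over all genes. Each pair of comparisons shares arrays, so likeness between them is not a separate observation.

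**Figure D2:**
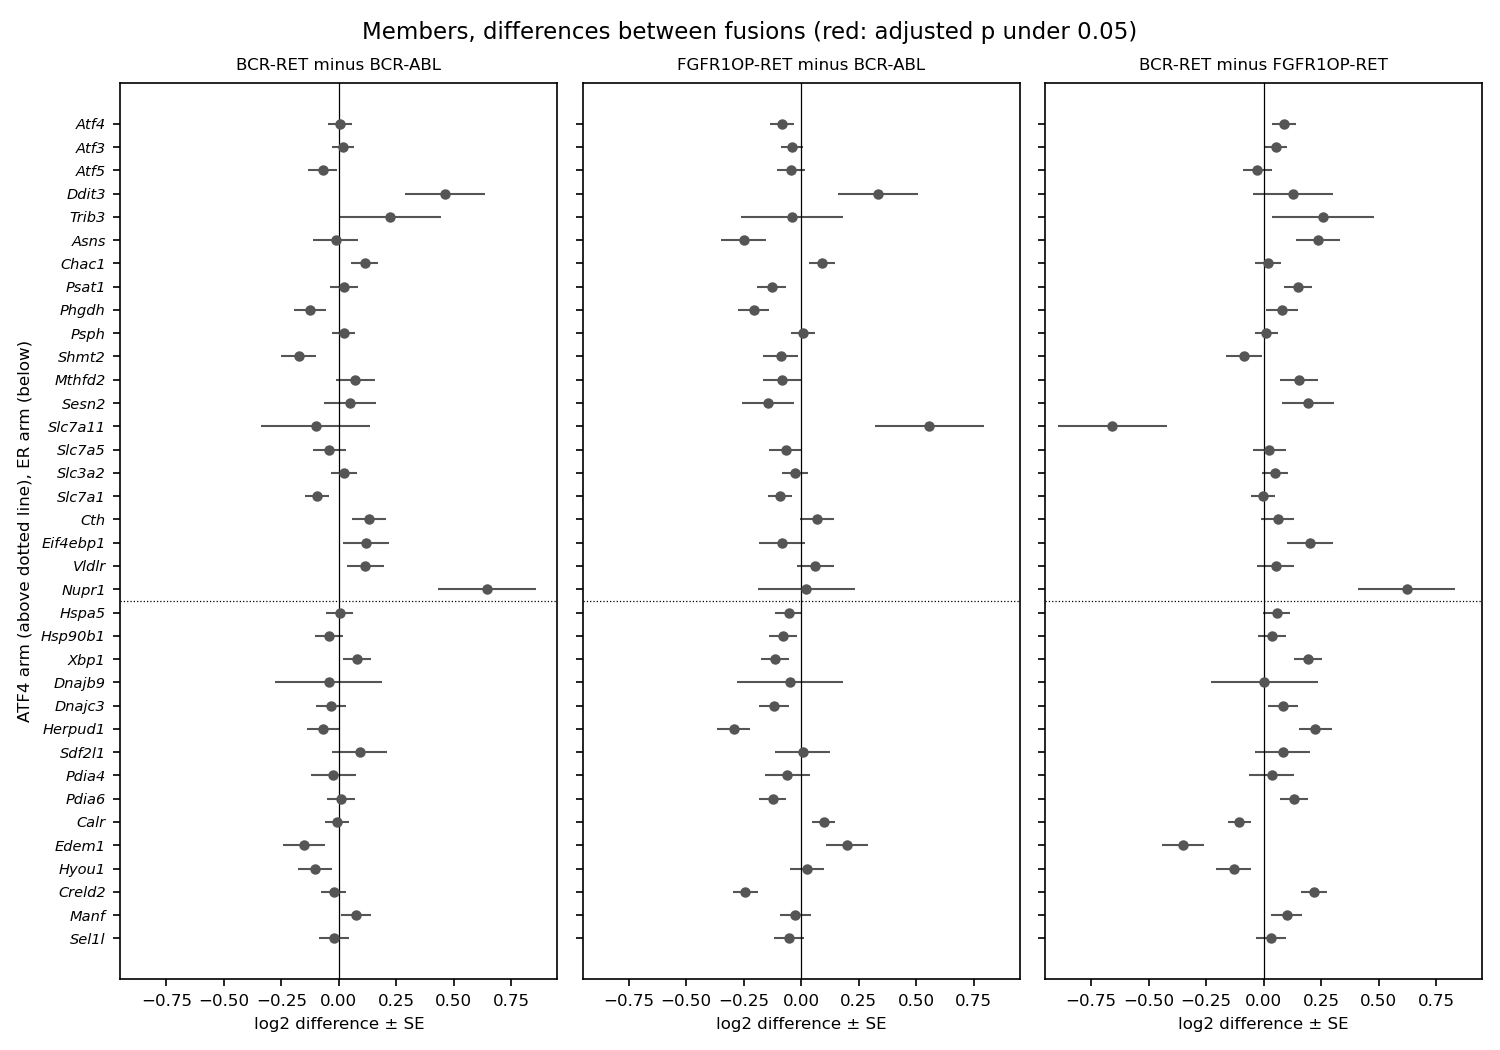
Log2 difference of every member (points, with bars of 1 SE on either side) by arm, for BCR-RET minus BCR-ABL, FGFR1OP-RET minus BCR-ABL and BCR-RET minus FGFR1OP-RET. Most points lie within 0.2 of 0, and the 5 widest bars belong to Slc7a11, Dnajb9, Trib3, Nupr1 and Ddit3.

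Of the transcription factors, Atf4 (probe set 10425364) was at 11.02, 11.04 and 10.97 on the BCR-RET arrays, 10.96, 10.94 and 10.87 on the FGFR1OP-RET arrays and 10.97, 10.97 and 11.07 on the BCR-ABL arrays (log2, numbers 1, 2 and 3). All 3 FGFR1OP-RET arrays lay below the arrays of the other fusions, by a small margin. The differences were 0.01 for BCR-RET against BCR-ABL (95% interval -0.11 to 0.12), -0.08 for FGFR1OP-RET against BCR-ABL (-0.20 to 0.03) and 0.09 for BCR-RET against FGFR1OP-RET (-0.03 to 0.20), with limma adjusted p of 0.971, 0.66 and 0.458. Atf3 and Atf5, a relative of Atf4 with similar translational control, had differences between -0.07 and 0.06 in the 3 comparisons.

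Ddit3 (10366881), which encodes CHOP, a factor linked to cell death under lasting ER stress, was at 9.63, 9.03 and 9.38 on the BCR-RET arrays, 9.55, 9.02 and 9.09 on the FGFR1OP-RET arrays and 9.04, 8.69 and 8.93 on the BCR-ABL arrays. In every fusion the array numbered 1 was the highest and number 2 the lowest, and at each number the BCR-ABL array was the lowest of the 3 fusions. The ranges of the RET fusions and BCR-ABL overlapped nonetheless. The difference was 0.46 (SE 0.17, 95% interval 0.07 to 0.85, limma adjusted p = 0.367) for BCR-RET against BCR-ABL and 0.33 (-0.06 to 0.72, 0.592) for FGFR1OP-RET against BCR-ABL. Without FGFR1OP-RET replicate 1 the second value was 0.17. Taken at numbers 1, 2 and 3 in turn, the first was 0.59, 0.35 and 0.44 in BCR-RET against BCR-ABL.

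Among the regulators downstream of ATF4, Nupr1 (10567995), a small stress-induced nuclear protein, was at 10.75, 10.17 and 10.71 on the BCR-RET arrays, 10.36, 9.72 and 9.69 on the FGFR1OP-RET arrays and 10.17, 9.76 and 9.77 on the BCR-ABL arrays. Of the BCR-RET arrays, numbers 1 and 3 lay above every array of the other fusions, and BCR-RET number 2 lay at the level of BCR-ABL number 1. The difference was 0.64 (SE 0.21, 0.17 to 1.12, limma adjusted p = 0.304) for BCR-RET against BCR-ABL and 0.62 (0.15 to 1.10, 0.228) for BCR-RET against FGFR1OP-RET. At numbers 1, 2 and 3 it was 0.58, 0.41 and 0.93 in BCR-RET against BCR-ABL and 0.39, 0.45 and 1.02 in BCR-RET against FGFR1OP-RET. FGFR1OP-RET and BCR-ABL differed by 0.02 (-0.45 to 0.50).

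For BCR-RET and BCR-ABL the replicate numbers met the criterion for pairs, so the comparison was also fitted with the number as a block. That fit held the arrays of all fusions, so the FGFR1OP-RET arrays, which share only a number with the others, entered its SEs and p-values. Its calls are therefore not those of a paired fit of BCR-RET and BCR-ABL arrays alone, which is not given here. In the blocked fit of all arrays 2 of 36 members passed (5.56%), against 1.82% of all genes. Ddit3 rose by 0.46 in BCR-RET cells (SE 0.07, limma adjusted p = 0.015 with the block) and Nupr1 by 0.64 (SE 0.11, 0.0213). The Ddit3 call was lost in blocked fits without any 1 BCR-ABL array or without BCR-RET replicate 1 or 3, up to an adjusted p of 0.12 in limma. The Nupr1 call was lost without any 1 BCR-ABL array or without BCR-RET replicate 1, up to 0.164.

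Trib3 (10488608), a pseudokinase that ATF4 and CHOP induce and that restrains them, was at 10.57, 10.06 and 10.04 on the BCR-RET arrays, 10.49, 9.85 and 9.55 on the FGFR1OP-RET arrays and 10.13, 10.00 and 9.87 on the BCR-ABL arrays. The 3 ranges overlapped, and the FGFR1OP-RET arrays alone spanned almost the whole range. The differences of 0.22, -0.04 and 0.26 in the 3 comparisons had limma adjusted p of 0.713, 0.976 and 0.622. Chac1, which degrades glutathione, averaged 8.22 ± 0.04 in BCR-RET cells, 8.19 ± 0.07 in FGFR1OP-RET cells and 8.10 ± 0.07 in BCR-ABL cells (mean ± SD, n = 3 each, as for all means below). It was 1 of 3 members (8.33%, against 16.6% of all genes) whose BCR-RET and BCR-ABL ranges did not overlap. Its difference of 0.11 missed the threshold (limma adjusted p = 0.493). Sesn2, a leucine sensor that restrains mTORC1, averaged 10.50 ± 0.04, 10.31 ± 0.28 and 10.45 ± 0.02 in the same order of fusions. Its FGFR1OP-RET number 1 stood above the other arrays of that fusion, and without that array Sesn2 passed in BCR-RET against FGFR1OP-RET, where its difference on all arrays was 0.19. Eif4ebp1, a repressor of cap-dependent translation, averaged 12.36 ± 0.19, 12.15 ± 0.15 and 12.24 ± 0.02, again in that order.

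None of the enzymes of amino acid synthesis passed between fusions. Asns, asparagine synthetase, averaged 13.38 ± 0.15 in BCR-RET cells, 13.14 ± 0.15 in FGFR1OP-RET cells and 13.40 ± 0.11 in BCR-ABL cells, and its differences of -0.25 in FGFR1OP-RET against BCR-ABL and 0.24 in BCR-RET against FGFR1OP-RET missed the threshold (limma adjusted p = 0.426 and 0.307). Of the serine pathway, Phgdh (first step) averaged 11.53 ± 0.06, 11.45 ± 0.09 and 11.65 ± 0.09, and Psat1 (second step) 13.19 ± 0.09, 13.04 ± 0.06 and 13.16 ± 0.07, in the same order. All 3 FGFR1OP-RET arrays lay below all 3 BCR-ABL arrays for both genes, with differences of -0.21 (adjusted p = 0.316) and -0.13 (0.559) in limma. Psph, which completes the pathway, differed by at most 0.02 in any comparison. Of the mitochondrial one-carbon enzymes, Shmt2 had all 3 BCR-RET arrays at or below 12.57, just under the lowest BCR-ABL array, a difference of -0.17 (limma adjusted p = 0.434), and Mthfd2 differed by 0.07, -0.08 and 0.15. Cth, which makes cysteine from cystathionine, differed by 0.13, 0.07 and 0.06.

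Of the transporters, Slc7a11 (10498024), the cystine-glutamate antiporter that feeds glutathione synthesis, was at 10.09, 10.65 and 10.66 on the BCR-RET arrays, 10.72, 11.24 and 11.41 on the FGFR1OP-RET arrays and 10.18, 10.57 and 10.95 on the BCR-ABL arrays. At every number the FGFR1OP-RET array was the highest of the 3 fusions, and all FGFR1OP-RET arrays lay above all BCR-RET arrays, while the ranges of FGFR1OP-RET and BCR-ABL overlapped. The difference was 0.56 for FGFR1OP-RET against BCR-ABL (SE 0.24, 0.03 to 1.09, limma adjusted p = 0.487) and -0.66 for BCR-RET against FGFR1OP-RET (-1.19 to -0.13, 0.247). The first value was 0.36 without BCR-ABL replicate 1. At numbers 1, 2 and 3 these were 0.54, 0.67 and 0.46 for the FGFR1OP-RET against BCR-ABL difference and -0.63, -0.59 and -0.75 for the BCR-RET against FGFR1OP-RET difference. Slc7a5, a carrier of large neutral amino acids, its partner chain Slc3a2, and Slc7a1, a carrier of arginine and lysine, differed by -0.10 to 0.05 in the 3 comparisons. Vldlr, a lipoprotein receptor, differed by 0.11, 0.06 and 0.05.

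Of the ER chaperones none passed between fusions. Hspa5 (10471586), the chaperone BiP whose level is the usual readout of the unfolded protein response, was at 13.38, 13.43 and 13.39 on the BCR-RET arrays, 13.43, 13.35 and 13.26 on the FGFR1OP-RET arrays and 13.32, 13.45 and 13.43 on the BCR-ABL arrays. The 3 ranges overlapped, and the intervals of the differences were -0.13 to 0.14 for BCR-RET against BCR-ABL, -0.19 to 0.08 for FGFR1OP-RET against BCR-ABL and -0.07 to 0.19 for BCR-RET against FGFR1OP-RET. Hsp90b1, the ER member of the HSP90 family, differed by -0.04, -0.08 and 0.04. Calr, a chaperone of glycoproteins, had all 3 FGFR1OP-RET arrays above all arrays of the other fusions by a mean of 0.10 over BCR-ABL (limma adjusted p = 0.592). Hyou1, which resets BiP between folding cycles, was at 11.36, 11.33 and 11.24 on the BCR-RET arrays, 11.51, 11.53 and 11.27 on the FGFR1OP-RET arrays and 11.40, 11.35 and 11.48 on the BCR-ABL arrays, overlapping ranges with a difference of -0.10 for BCR-RET against BCR-ABL (adjusted p = 0.611). The J-domain partners of BiP, Dnajb9 and Dnajc3, differed by at most 0.12 in size, and so did the isomerase Pdia4 and the BiP cofactor Sdf2l1. The isomerase Pdia6 differed by 0.01, -0.12 and 0.13.

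Xbp1 (10374035), the transcription factor that IRE1 activates, was at 12.31, 12.35 and 12.40 on the BCR-RET arrays, 12.14, 12.05 and 12.28 on the FGFR1OP-RET arrays and 12.28, 12.28 and 12.27 on the BCR-ABL arrays. The BCR-RET arrays lay above those of both other fusions, and FGFR1OP-RET number 3 reached the BCR-ABL level. The difference was 0.19 for BCR-RET against FGFR1OP-RET (SE 0.06, 0.06 to 0.33, limma adjusted p = 0.197) and 0.08 for BCR-RET against BCR-ABL (0.632).

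Creld2 (10426098), an ER stress gene of the lumen, was at 12.19, 12.14 and 12.10 on the BCR-RET arrays, 11.93, 11.92 and 11.92 on the FGFR1OP-RET arrays and 12.10, 12.13 and 12.27 on the BCR-ABL arrays. All FGFR1OP-RET arrays lay below all others and within 0.01 of each other. The difference was -0.24 for FGFR1OP-RET against BCR-ABL (SE 0.06, limma adjusted p = 0.0988, the smallest of any member there) and 0.22 for BCR-RET against FGFR1OP-RET (0.112). Herpud1 (10574087), an organiser of the ER degradation complex, was at 11.52, 11.81 and 11.69 on the BCR-RET arrays, 11.51, 11.41 and 11.42 on the FGFR1OP-RET arrays and 11.71, 11.77 and 11.74 on the BCR-ABL arrays. Here too the FGFR1OP-RET arrays were the lowest, with -0.29 against BCR-ABL (SE 0.07, -0.45 to -0.13, 0.128). Both promoters carry a match shown above, ERSE in Creld2 and ERSE-II in Herpud1, and so does that of Hspa5, whose intervals are given above. ERSE was also found in Calr, whose FGFR1OP-RET arrays lay above all others. It was found as well in Dnajc3, Hsp90b1 and Pdia6, whose means were lower in FGFR1OP-RET than in BCR-ABL cells.

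Edem1 (10540493), which hands misfolded glycoproteins to degradation, ran the other way, at 10.90, 11.19 and 11.02 on the BCR-RET arrays, 11.24, 11.39 and 11.53 on the FGFR1OP-RET arrays and 11.12, 11.18 and 11.26 on the BCR-ABL arrays. All FGFR1OP-RET arrays lay above all BCR-RET arrays. The difference was -0.35 for BCR-RET against FGFR1OP-RET (SE 0.09, -0.55 to -0.15, limma adjusted p = 0.124), with -0.33, -0.20 and -0.51 at numbers 1, 2 and 3. Sel1l, an adaptor of the same degradation machinery, and Manf, a secreted ER stress protein, differed by at most 0.10.

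**Figure D3:**
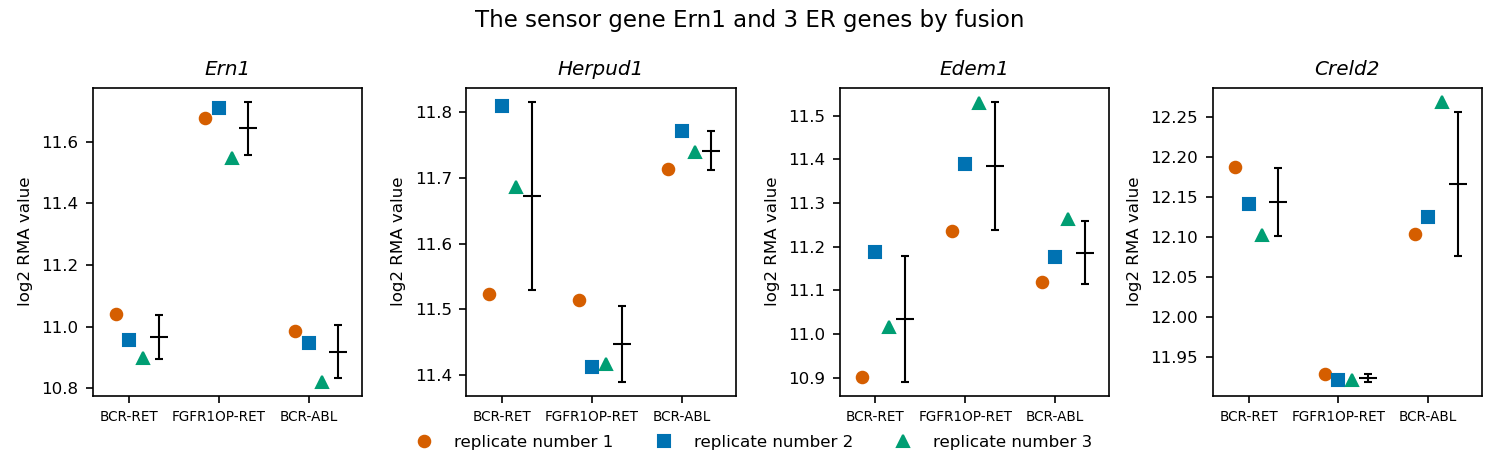
Log2 values on each array (points, with a colour and shape for each replicate number) beside group means and SD (black, n = 3) for Ern1, Herpud1, Edem1 and Creld2 in BCR-RET, FGFR1OP-RET and BCR-ABL cells. The Ern1 values of FGFR1OP-RET cells lie between 11.55 and 11.71, above every array of the other fusions, while the FGFR1OP-RET arrays are the lowest for Creld2 and Herpud1. The vertical scales differ between genes.

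Counted over the members, groups that did not overlap were 3 of 36 (8.33%) in BCR-RET against BCR-ABL, against 16.6% of all genes. They were 7 of 36 (19.4%, against 12.1%) in FGFR1OP-RET against BCR-ABL, of which 6 were lower in FGFR1OP-RET cells. In BCR-RET against FGFR1OP-RET they were 9 of 36 (25%, against 15.3%), 6 of them higher in BCR-RET cells. The differences had the same sign at all 3 numbers in 13, 16 and 20 of 36 members (36.1%, 44.4% and 55.6%), against 41.9%, 30.3% and 36% of all genes, for the 3 comparisons in the same order. In FGFR1OP-RET against BCR-ABL 10 of the 16 were lower, and in BCR-RET against FGFR1OP-RET 15 of the 20 were higher, the 2 counts sharing the FGFR1OP-RET arrays. Whatever their size, differences above 0 in FGFR1OP-RET against BCR-ABL numbered 11 of 36 members and 10120 of all 19938 genes. In BCR-RET against FGFR1OP-RET they numbered 29 of 36 members and 12064 of all genes. A split by direction of all genes that met either criterion was not counted, so the lean of the members has no matching share beside it.

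Outside the members, 4 further lists of the same pathways were read, and 1 gene passed between fusions. Ern1 (10392183), the gene of the sensor IRE1, was at 11.04, 10.96 and 10.90 on the BCR-RET arrays, 11.68, 11.71 and 11.55 on the FGFR1OP-RET arrays and 10.99, 10.95 and 10.82 on the BCR-ABL arrays. Every FGFR1OP-RET array lay above all 6 others. Ern1 rose by 0.73 in FGFR1OP-RET against BCR-ABL (SE 0.07, 1.65-fold, limma adjusted p = 0.00182) and was lower by -0.68 in BCR-RET against FGFR1OP-RET (SE 0.07, 0.00237). Without 1 array at a time the adjusted p stayed between 0.00349 and 0.0176, and between 0.00394 and 0.0204. BCR-RET against BCR-ABL differed by 0.05 (-0.10 to 0.20). No other sensor passed: the PERK gene Eif2ak3 differed by -0.10 in FGFR1OP-RET against BCR-ABL (adjusted p = 0.734), Atf6 by 0.00 (0.997) and the GCN2 gene Eif2ak4 by 0.06 (0.834) in limma. In the same comparison 0 of the 15 ER-arm members passed, 4 of them were above 0, and they ran from -0.29 for Herpud1 to 0.20 for Edem1, with a median of -0.05.

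In the 4 lists, 1 of 21 measured sensor and eIF2 control genes passed in each comparison with FGFR1OP-RET cells, Ern1 both times, and 0 passed in BCR-RET against BCR-ABL. Of 18 cytosolic aminoacyl-tRNA synthetases, 20 other genes of amino acid uptake and synthesis and 34 other genes of ER folding, export and degradation, 0 passed in any of the 3 comparisons. With the replicate number as a block, BCR-RET against BCR-ABL added Ddit4, an inhibitor of mTORC1, higher by 0.43 (limma adjusted p = 0.00501), and Ero1a, an ER oxidase, higher by 0.27 (0.0438). They were 1 of 20 and 1 of 34 genes of their lists (5% and 2.94%), against 1.82% of all genes with the block. Where the samples share only a number, the block gave calls too. In FGFR1OP-RET against BCR-ABL they were 1 of 21, 0 of 18, 1 of 20 and 1 of 34, against 2.89% of all genes. In BCR-RET against FGFR1OP-RET they were 3 of 21 (14.3%), 1 of 18 (5.56%), 0 of 20 and 2 of 34 (5.88%), against 5.69%. The lists are in the order given above.

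Set against each other by replicate number, with fusion as a term, 6 of the 36 members differed between numbers (16.7%), against 4.45% of all genes (moderated F test in limma, adjusted p under 0.05). That count was 0 without BCR-RET replicate 1 and 0 without any 1 fusion, and 1 to 5 without any other array. The fit takes a number as 1 effect shared by the fusions, and FGFR1OP-RET number 2 went against that. Its deviations correlated by 0.213 and 0.209 with number 1 of BCR-ABL and BCR-RET, and by -0.128 and -0.152 with their number 2. Without this array the F test called 1501 of all genes, against 887 with all arrays. Number 1 stood apart from number 3 in both directions. The stress regulators Ddit3 and Trib3 were higher at number 1, and the transporter Slc7a11 and the ER genes Dnajb9 and Sdf2l1 were lower. Nupr1 passed the F test but no single pair of numbers.

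In number 1 against 2, 2 of 36 members passed (0.787% of all genes). Ddit3 was higher, as were 0.461% of all genes, and Slc7a11 was lower, as were 0.326%. In number 1 against 3, 5 of 36 passed (13.9%), close to the 9.85% of all genes. They were 2 of 36 higher and 3 of 36 lower, where all genes had 3.18% higher and 6.67% lower. The ATF4 arm gave 3 of 21 (14.3%) and the ER arm 2 of 15 (13.3%). In number 2 against 3, 0 of 36 passed, against 0.00502% of all genes, and 4 of 36 members had an unadjusted p under 0.05, which is 11.1% against 6.89% of all genes. The comparisons share arrays in pairs, and a number effect that differs between fusions could not be tested, with 1 array for each number in each fusion.

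Ddit3 was at 9.63, 9.55 and 9.04 at number 1 in BCR-RET, FGFR1OP-RET and BCR-ABL cells, against 9.03, 9.02 and 8.69 at number 2 and 9.38, 9.09 and 8.93 at number 3. Number 1 was the highest and number 2 the lowest in each fusion, although the spread over fusions made the ranges of the numbers overlap. It rose by 0.49 at number 1 against 2 (SE 0.07, 0.33 to 0.66, 1.41-fold, limma adjusted p = 0.0261) and by 0.28 against 3 (SE 0.07, 0.0456). The first call held without BCR-ABL replicate 1, FGFR1OP-RET replicate 2 or FGFR1OP-RET replicate 3 and was lost without any of the other 6 arrays, up to an adjusted p of 0.209. The second held without BCR-ABL replicate 1, BCR-RET replicate 2 or FGFR1OP-RET replicate 2 and was lost without any of the other 6, up to 0.215, and at 0.0456 it missed the threshold when each array was centred on its median (0.0522).

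Trib3 was at 10.57, 10.49 and 10.13 at number 1 in BCR-RET, FGFR1OP-RET and BCR-ABL cells, against 10.06, 9.85 and 10.00 at number 2 and 10.04, 9.55 and 9.87 at number 3. Number 1 was the highest and number 3 the lowest in every fusion, and all number 1 arrays lay above all others. It rose by 0.58 at number 1 against 3 (SE 0.11, 0.33 to 0.82, 1.49-fold, limma adjusted p = 0.0146), and the 0.42 of number 1 against 2 did not pass (0.121). The call was lost when either of BCR-RET replicate 1 (0.091) or FGFR1OP-RET replicate 3 (0.069) was left out. Nupr1 was at 10.75, 10.36 and 10.17 at number 1, 10.17, 9.72 and 9.76 at number 2 and 10.71, 9.69 and 9.77 at number 3, in the same order of fusions. Within each fusion number 1 was the highest. The F test passed (limma adjusted p = 0.0476), while number 1 against 2 gave 0.55 (0.0656) and 1 against 3 0.38 (0.0651). The F test call was lost without any 1 array other than BCR-RET replicate 3, up to an adjusted p of 0.184.

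Slc7a11 was at 10.09, 10.72 and 10.18 at number 1 in BCR-RET, FGFR1OP-RET and BCR-ABL cells, against 10.65, 11.24 and 10.57 at number 2 and 10.66, 11.41 and 10.95 at number 3. In every fusion number 1 was the lowest and number 3 the highest, and the ranges overlapped because FGFR1OP-RET cells were high throughout. It fell by 0.68 at number 1 against 3 (SE 0.07, -0.83 to -0.52, 0.625-fold, limma adjusted p = 0.00136) and by 0.49 against 2 (SE 0.07, 0.0215). The call against 3 held without any 1 array (highest 0.0186). The call against 2 was lost without number 1 of any fusion and without BCR-RET replicate 2, up to 0.141. Slc7a11 and Nupr1, both with TGATGNAA matches in the windows shown, thus lay on opposite sides at number 1.

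Dnajb9 (10400137), the J-domain protein that holds IRE1 in its inactive form, was at 9.56, 9.61 and 9.83 at number 1 in BCR-RET, FGFR1OP-RET and BCR-ABL cells, against 10.15, 9.96 and 10.07 at number 2 and 10.31, 10.44 and 10.25 at number 3. Number 1 was the lowest and number 3 the highest in every fusion, and all number 1 arrays lay below all others. It fell by 0.66 at number 1 against 3 (SE 0.09, -0.86 to -0.47, 0.631-fold, limma adjusted p = 0.00381), and -0.39 against number 2 did not pass (0.0829). Sdf2l1 (10438098), a cofactor of BiP, was at 12.27, 12.11 and 12.16 at number 1, 12.37, 12.37 and 12.28 at number 2 and 12.57, 12.48 and 12.50 at number 3. It was ordered like Dnajb9 in every fusion, and all number 3 arrays lay above all others. It fell by 0.34 at number 1 against 3 (SE 0.05, 0.791-fold, limma adjusted p = 0.00713). Both calls against number 3 held without any 1 array, with adjusted p up to 0.0386 for Dnajb9 and 0.0426 for Sdf2l1. The F test calls held in 6 of 9 such fits for Dnajb9 and in 3 of 9 for Sdf2l1, with adjusted p up to 0.111 and 0.121 in limma. Pdia4 (10544525), the third ER gene by the F test, was at 11.74, 11.80 and 11.85 at number 1, 12.04, 11.80 and 11.93 at number 2 and 11.98, 12.05 and 12.05 at number 3. In each fusion number 1 was the lowest, and -0.23 against number 3 did not pass (limma adjusted p = 0.0554).

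**Figure D4:**
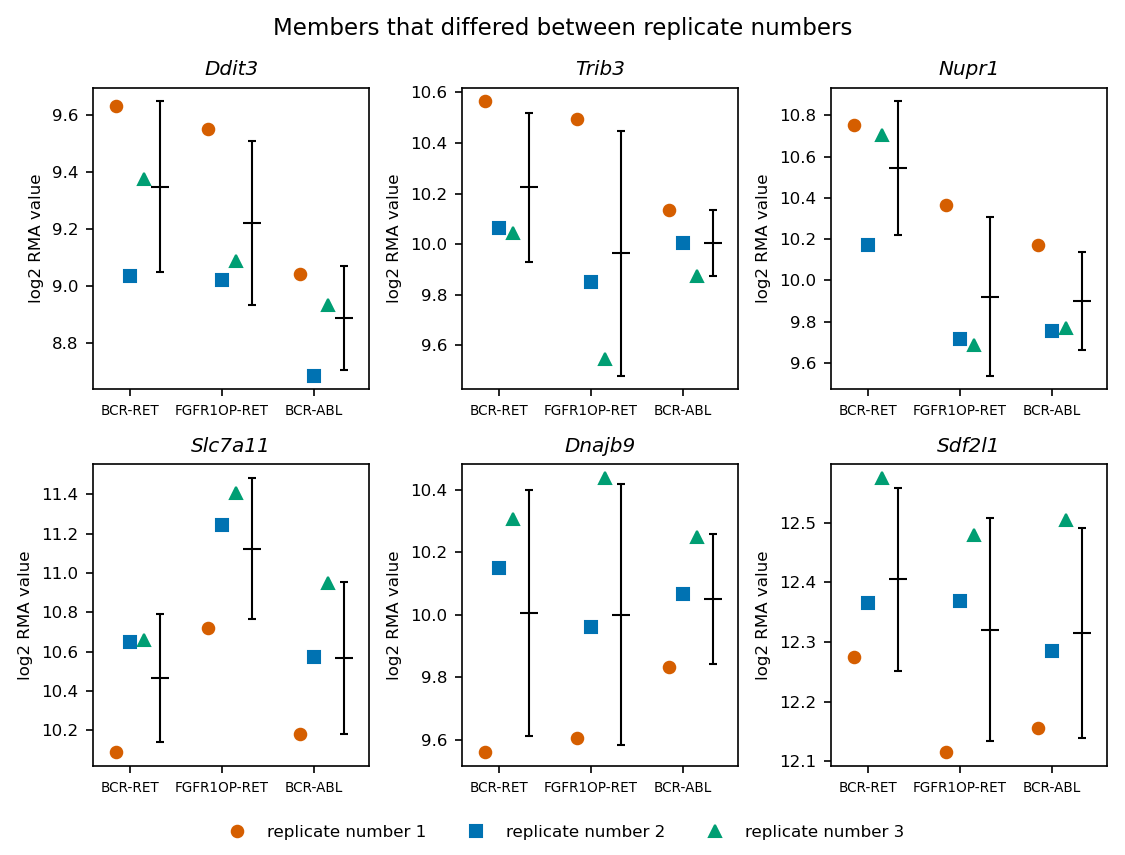
Log2 values of Ddit3, Trib3, Nupr1, Slc7a11, Dnajb9 and Sdf2l1 on each array by fusion (points, with a colour and shape for each replicate number) beside group means and SD (black, n = 3). In each fusion number 1 is the highest array for Ddit3, Trib3 and Nupr1 and the lowest for Slc7a11, Dnajb9 and Sdf2l1.

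The central genes did not pass between numbers. Atf4 averaged 10.98, 10.99 and 10.97 at numbers 1, 2 and 3 (F test in limma, adjusted p = 0.985), Hspa5 13.38, 13.41 and 13.36 (0.901), and Xbp1 12.24, 12.23 and 12.32 (0.667). Among the enzymes of amino acid and one-carbon metabolism, number 1 against 3 gave -0.21 for Asns, -0.09 for Psat1, -0.06 for Phgdh, -0.09 for Shmt2, 0.02 for Psph and 0.17 for Mthfd2, none past the threshold. The median difference of number 1 against 3 was 0.01 for the ATF4 arm, -0.07 for the ER arm and 0.01 for all genes.

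By order alone, number 1 was the highest array in all 3 fusions for 3 of 36 members (8.33%, against 8.38% of all genes), Ddit3, Trib3 and Nupr1. It was the lowest in all 3 for 8 of 36 (22.2%, against 12.5%), Psat1, Slc7a11 and Slc7a5 of the ATF4 arm and Dnajb9, Sdf2l1, Pdia4, Edem1 and Manf of the ER arm. Number 3 was the highest for 6 (16.7%, against 6.18%) and the lowest for 3, Trib3, Mthfd2 and Sesn2 (8.33%, against 6.53%). Number 2 was the lowest for Ddit3 alone (2.78%, against 1.23%) and the highest for none (2.34% of all genes).

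**Figure D5:**
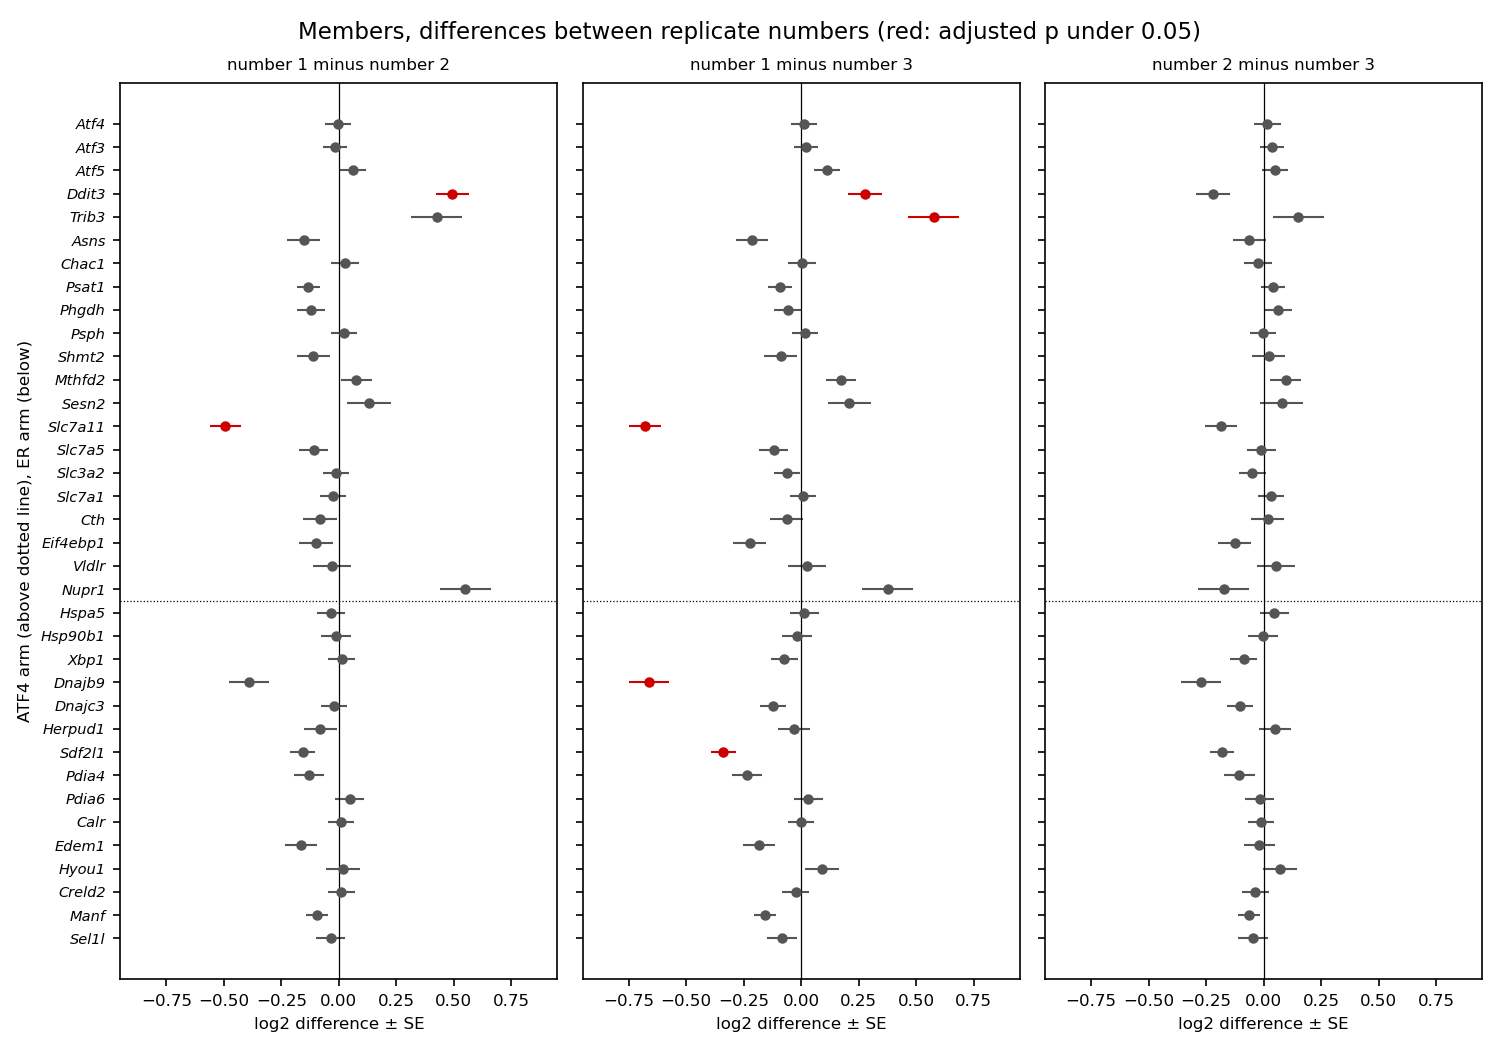
Log2 difference of every member in number 1 against 2, number 1 against 3 and number 2 against 3 (points, with bars of 1 SE on either side), by arm, with members past the threshold in red. Slc7a11, Dnajb9 and Sdf2l1 lie to the left of 0 and Ddit3 and Trib3 to the right in number 1 against 3.

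In the other lists, the largest difference among the genes called in number 1 against 3 was that of Ddit4 (10369290), also an ATF4 target, at 11.23, 11.30 and 10.84 at number 1 in BCR-RET, FGFR1OP-RET and BCR-ABL cells, against 10.63, 10.62 and 10.19 at number 2 and 10.29, 10.15 and 9.83 at number 3. Number 1 was the highest and number 3 the lowest in every fusion. Ddit4 rose by 1.03 at number 1 against 3 (SE 0.06, 2.04-fold, limma adjusted p = 6.7e-05) and by 0.64 against 2 (SE 0.06, 0.00237), and both calls held without any 1 array. Of the 20 measured genes of its list, 1 was higher at number 1 against 2 (5%, against 0.461% of all genes). In number 1 against 3, 2 of 20 were higher (10%, against 3.18% of all genes) and 0 lower, where 9.85% of all genes passed in either direction. The second was Fgf21, a stress hormone, higher by 0.32 (limma adjusted p = 0.0188).

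Of the 21 sensor and eIF2 control genes, 2 were higher and 4 lower at number 1 against 3, together 28.6%, where 3.18% of all genes were higher and 6.67% lower. By the F test they were 3 of 21 (14.3%, against 4.45%). Cebpg, a dimer partner of ATF4, rose by 0.34 (limma adjusted p = 0.00836) and also against number 2, by 0.32 (0.044). Eif2ak2, the eIF2 kinase PKR that senses double-stranded RNA, fell by 0.45 (0.0073), and Eif2b1, a subunit of the exchange factor of eIF2, by 0.32 (0.0138). Of the 18 aminoacyl-tRNA synthetases 2 were higher, Vars by 0.22 (0.0431) and Cars by 0.23 (0.0476), and 0 were lower. Their share was 11.1%, where 3.18% of all genes were higher and 9.85% passed in either direction. The F test passed 0 of these 18. Of 34 further ER genes 8 were lower (23.5%, against 6.67% of all genes) and none higher, with a median of -0.11 over the list, while the F test passed 2 of 34 (5.88%, against 4.45%). They included Ppib, a prolyl isomerase, by -0.36 (0.00727), the chaperone Hspa13 by -0.33 (0.015) and the oxidase Ero1b by -0.33 (0.0201). In number 2 against 3, 0 genes of the 4 lists passed, as for the members.

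Of the 16 markers of other cells, 1 passed in number 1 against 3, where 9.85% of all genes did. It was Adgre1, a macrophage marker, lower at number 1 by -0.39 (limma adjusted p = 0.0262), and the other 15 did not pass. Of 11 BaF3 markers 2 passed (18.2%, against 9.85%). The interleukin-3 receptor gene Il3ra was higher by 0.23 (0.0465) and the B-cell receptor chain Cd79b lower by -0.30 (0.0303). Their part in the differences of the members was not tested. Between fusions, the receptor chains Csf2rb and Csf2rb2 were higher in both RET fusions, by 0.72 and 0.90 in BCR-RET against BCR-ABL and by 0.69 and 0.56 in FGFR1OP-RET against BCR-ABL (limma adjusted p up to 0.0236). The leukocyte antigen Ptprc was lower in BCR-RET against FGFR1OP-RET, by -0.36 (limma adjusted p = 0.0182). The part of these markers in the differences between fusions was not tested either.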

How the data were processed

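Total RNA from sorted BaF3 cells was hybridised to 9 arrays. Per the submitters' processing notes, the authors ran Affymetrix Expression Console to obtain RMA values for whole genes, and the deposited values are on the log2 scale. RMA corrects the background, makes the arrays' distributions alike and summarises the probes, which would hide a shift shared by most transcripts. The sources used here give neither a software version nor an annotation, and detection calls were not used here. Values ran from 2.66 to 14.92, array medians lay between 8.01 and 8.04, and the small number of arrays limits the precision.

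The platform annotation gave 1 symbol to 21789 of 35557 probe sets, several to 1621 and none to 12147, and those with 1 were kept. The highest-mean probe set was taken for each of the 999 genes with several, leaving 19938 genes. All 36 member symbols matched the RefSeq gene table by Entrez identifier. Fusions were compared in limma 3.58.1 (R 4.3.3) with 1 mean per fusion over all 9 arrays (6 residual degrees of freedom), and replicate numbers with fusion and number as terms (4 residual degrees of freedom). Adjusted p-values are Benjamini-Hochberg over all 19938 genes, with a threshold of 0.05, and intervals are at 95%. The fits were also run on simulated data with independent noise on each array. Those data lack the correlation between arrays given below, so they set no error rate for these arrays. Groups and numbers came from the titles.

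The titles give the 3 fusions the same numbers. Deviations from the group means correlated, across genes, by 0.617, 0.155 and 0.367 between same-numbered BCR-RET and BCR-ABL arrays. All were over the limit of 0.1 for treating numbers as pairs. BCR-RET number 2 with BCR-ABL number 3 gave 0.222, and BCR-RET number 3 with BCR-ABL number 2 also gave 0.222. Both exceed the 0.155 at number 2, so the criterion was met although number 2 was not closest to its own number. Same-numbered values were 0.382, -0.128 and 0.4 for FGFR1OP-RET and BCR-ABL. They were 0.498, -0.152 and 0.41 for BCR-RET and FGFR1OP-RET, so in these 2 comparisons the samples share only a number.

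Full array values were given by rule for members past the threshold, the 2 largest differences per arm and fusion comparison, the 3 lowest F test p-values per arm, and Atf4, Ddit3, Hspa5 and Xbp1. The 4 further pathway lists and the marker lists of BaF3, fibroblasts, macrophages and T cells were described by counts, with up to 3 called genes named per pathway list. The members and the lists were chosen with earlier results of these data known. Alternatives were a replicate block (fitted over the arrays of all fusions), fewer arrays, a low-value filter, averaged probe sets, median centring and a trended variance. RefSeq promoters of GRCm38.p6 were used for sequence alone.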

Additional observations from a re-analysis of the deposited data

How the results depend on the processing

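The count of members past the threshold between fusions was 0 in the 3 comparisons, and it stayed 0 with only the 2 fusions of a comparison in the fit, with a trended variance, with genes of a mean of at least 7 alone, with averaged probe sets and with each array centred on its median. Without 1 array it ranged from 0 to 1 in BCR-RET against FGFR1OP-RET (Sesn2, without FGFR1OP-RET replicate 1) and was 0 in the other comparisons. With the replicate block it was 2 in BCR-RET against BCR-ABL, 2 in FGFR1OP-RET against BCR-ABL and 3 in BCR-RET against FGFR1OP-RET. The block also took the calls over all genes to 362, 576 and 1135 (1.82%, 2.89% and 5.69%) in that order, against 117, 203 and 265 without it. With only the 2 fusions of a comparison in the fit they were 56, 94 and 34, and without 1 array 28 to 114, 70 to 185 and 86 to 194. In the last 2 comparisons, where the samples share only a number, the blocked calls were Ddit3 (0.33, limma adjusted p = 0.0456) and Slc7a11 (0.56, 0.00258) in FGFR1OP-RET against BCR-ABL. They were Slc7a11 (-0.66, 0.0011), Nupr1 (0.62, 0.0136) and Edem1 (-0.35, 0.019) in BCR-RET against FGFR1OP-RET.

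Between numbers, the members past the threshold in 1 against 2 were 2, or 4 with genes of a mean of at least 7 alone, and 0 to 3 without 1 array. In 1 against 3 they were 5, and 3 to 7 without 1 array. In the F test they were 6, and 0 to 5 without 1 array, the 0 without BCR-RET replicate 1. Without BCR-RET, FGFR1OP-RET and BCR-ABL cells in turn, which leaves 6 arrays, the counts were 0, 0 and 0 in 1 against 2, 1, 3 and 3 in 1 against 3, and 0, 0 and 0 in the F test. Among the named genes' alternatives, 627 left a result called or uncalled as it was, 80 lost a call, 7 gained one, and none turned the direction of a called value. The 627 include results with no call to lose, among them all those between fusions. The 80 losses were all among the calls between numbers. Over all genes the calls without 1 array were 17 to 281 in 1 against 2, 284 to 2549 in 1 against 3 and 43 to 1501 in the F test, against 157, 1964 and 887 with all arrays. The low number of arrays limits all of these counts.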
